A study of Mus musculus with 14 samples.

Results

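The comparison described here set duodenal mucosa taken 1 h after the beginning of a high-fat (HF) meal directly against mucosa taken 1 h after the beginning of a low-fat (LF) meal, without the fasting condition as a reference. Its members were chosen by label: the 2 arrays of the HF1h pool and the 2 arrays of the LF1h pool, 4 of the 14 arrays of the series, and 45037 of the 45101 probe sets on each, the other 64 being Affymetrix controls. The LF meal supplied 10% of calories as fat, 70% as carbohydrate and 20% as protein (3.85 kcal/g), and the HF meal 60%, 20% and 20% (5.24 kcal/g), so the meals differed in carbohydrate and energy density as well as in fat. All mice were male C57BL6 mice bought at 12 weeks of age and kept on the LF diet for 2 weeks, then fasted for 12 h before a meal offered ad libitum. Each pool combined the RNA of 20 mice, from mucosa scraped off the duodenum after a saline flush. The duodenum was taken as the first 5 cm of the small intestine. The remaining pools were taken after fasting alone or 30 min and 3 h after either meal.

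The 2 arrays of a pool were technical replicates of the same RNA. The p-values below therefore cover the spread between arrays and not the spread between mice, and no biological replicate was measured. The 4 arrays had medians of 4.49 to 4.55 on the log2 scale. Replicate arrays correlated at 0.9958 in LF1h and 0.9960 in HF1h across probe sets. The differences between the 3' and 5' probe sets of beta-actin, read for RNA quality, were 0.474 in LF1h and 0.470 in HF1h. The markers of the labelled tissue were abundant. Vil1, Fabp2, Alpi and Apoa4, of the brush border and of fat absorption, had mean log2 values of 12.2, 13.3, 13.6 and 13.8 over the series. All 18 measured enterocyte markers averaged at least 6 and none passed the test between the meals.

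As background, the duodenal epithelium meets a meal within minutes of gastric emptying. Enterocytes take up glucose through SGLT1 (Slc5a1), fructose through GLUT5 (Slc2a5) and fatty acids at the brush border, and repackage the fatty acids as chylomicrons. Sugar activates the transcription factor ChREBP, whose targets include lipogenic enzymes and the arrestin-like proteins Txnip and Arrdc4. Fasting and dietary fat favour PPARα and FOXO1, which raise Pdk4, a kinase that inhibits pyruvate dehydrogenase. The aryl hydrocarbon receptor (AHR) and the hypoxia-inducible factors (HIF) answer to dietary ligands and to low oxygen, and share the partner protein ARNT.

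At 1 h, 41 genes differed between the meals at the threshold used, and 29 of them were lower after the HF meal. Of 45037 probe sets, 86 passed the test (0.191%), 25 higher (0.0555%) and 61 lower (0.135%) in HF1h than in LF1h. With a change of at least 2-fold as well, 11 remained (0.0244%), 3 higher (0.00666%) and 8 lower (0.0178%). Counted on 1 probe set per gene, 41 of 18193 genes passed (0.225%), 12 higher (0.066%) and 29 lower (0.159%), and the 4 genes beyond 2-fold, Gkn1, Scd1, Gkn2 and Ankrd37, were all lower (0.022%). The median log2 difference over all genes was 0.0123. Probe sets were tested with limma and p-values adjusted over all of them by Benjamini-Hochberg, and a gene was called at an adjusted p under 0.05. At an unadjusted p under 0.05, 1995 genes passed, and the balance of probe sets turned, with 2546 higher and 2260 lower. The gene count depended on the variance model and the filter: it was 241 (75 higher, 166 lower) with a variance that follows the mean level, and 207 (50 higher, 157 lower) when probe sets averaging under 6 were left out. The gene count fell to 11 without LF1h replicate 1, 22 without LF1h replicate 2, and 20 without either HF1h replicate.

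**Figure D1:**
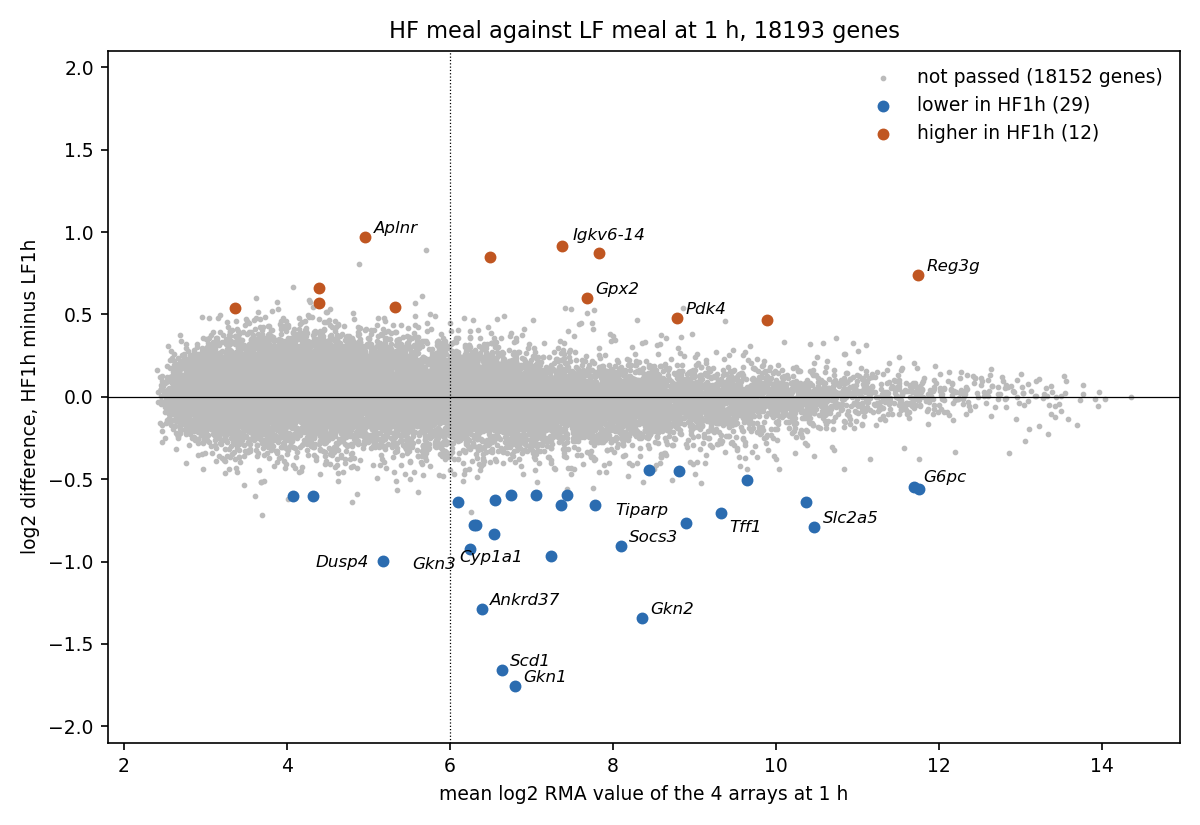
Log2 difference (HF1h minus LF1h, vertical axis) against the mean log2 value of the 4 arrays (horizontal axis) for 18193 genes, 1 probe set each. Blue dots are the 29 genes lower and orange dots the 12 genes higher in HF1h at an adjusted p under 0.05, grey dots did not pass, and the dotted line marks a log2 value of 6, under which values lie near background.

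Of the transcripts of the gastric mucosa, 4 were lower after the HF meal at 1 h, and Gkn1 had the largest difference of the 18193 genes, each read on 1 probe set. Gkn1 and Gkn2 encode gastrokines secreted by surface mucous cells of the stomach, Gkn3 a gastrokine of its mucous neck cells, and Tff1 a trefoil peptide of the same surface epithelium. All 4 passed the test. Gkn1 read 7.64 and 7.70 on the LF1h arrays and 5.88 and 5.95 on the HF1h arrays. It was at least 3.37-fold lower in HF1h (log2 difference -1.75, standard error 0.11, adjusted p = 3.2e-06), a lower bound because HF1h lay under 6. Its other probe set also passed, at -1.61. Gkn2 read 9.01 and 9.05 in LF1h and 7.69 and 7.68 in HF1h, a 2.54-fold difference (log2 difference -1.35, adjusted p = 3.2e-06). For both genes the HF1h arrays sat close to the fasting pool, which had means of 6.13 and 7.52, and the LF1h arrays stood clear above it. Tff1 read 9.72 and 9.65 against 8.98 and 8.98 (log2 difference -0.71, adjusted p = 0.0032). Gkn3 read 6.61 and 6.80 against 5.71 and 5.86 (log2 difference -0.92, adjusted p = 0.045), while its other probe set, of similar signal, had -0.44 and did not pass (adjusted p = 0.14). The calls of Gkn1 and Gkn2 passed whichever of the 14 arrays was left out. That of Tff1 had an adjusted p of 0.0577 without LF1h replicate 1, and that of Gkn3 was lost without any of 10 arrays, with adjusted p-values of 0.067 to 0.187.

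These 4 were the only genes to pass of 20 measured on a list of stomach and Brunner's gland markers. Over all genes, 0.225% passed. Of the 20 differences, 17 were negative, with a median of -0.22. Tff2, a trefoil peptide of gastric mucous neck cells and Brunner's glands, had -0.44 (adjusted p = 0.067). Atp4a, the proton pump of parietal cells, Pgc and Chia1, of chief cells, had -0.72, -0.56 and -0.62 and did not pass. Only 7 of the 20 averaged at least 6 over the series, and Atp4a and Chia1 averaged 3.7 and 4.0. Summed on the linear scale and returned to log2, the 20 transcripts stood at 11.8 on both LF1h arrays and at 11.3 on both HF1h arrays. In bulk mucosa, fewer cells of a type and less RNA per cell cannot be told apart, and the part of gastric tissue or of shed gastric cells in these values was not tested.

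**Figure D2:**
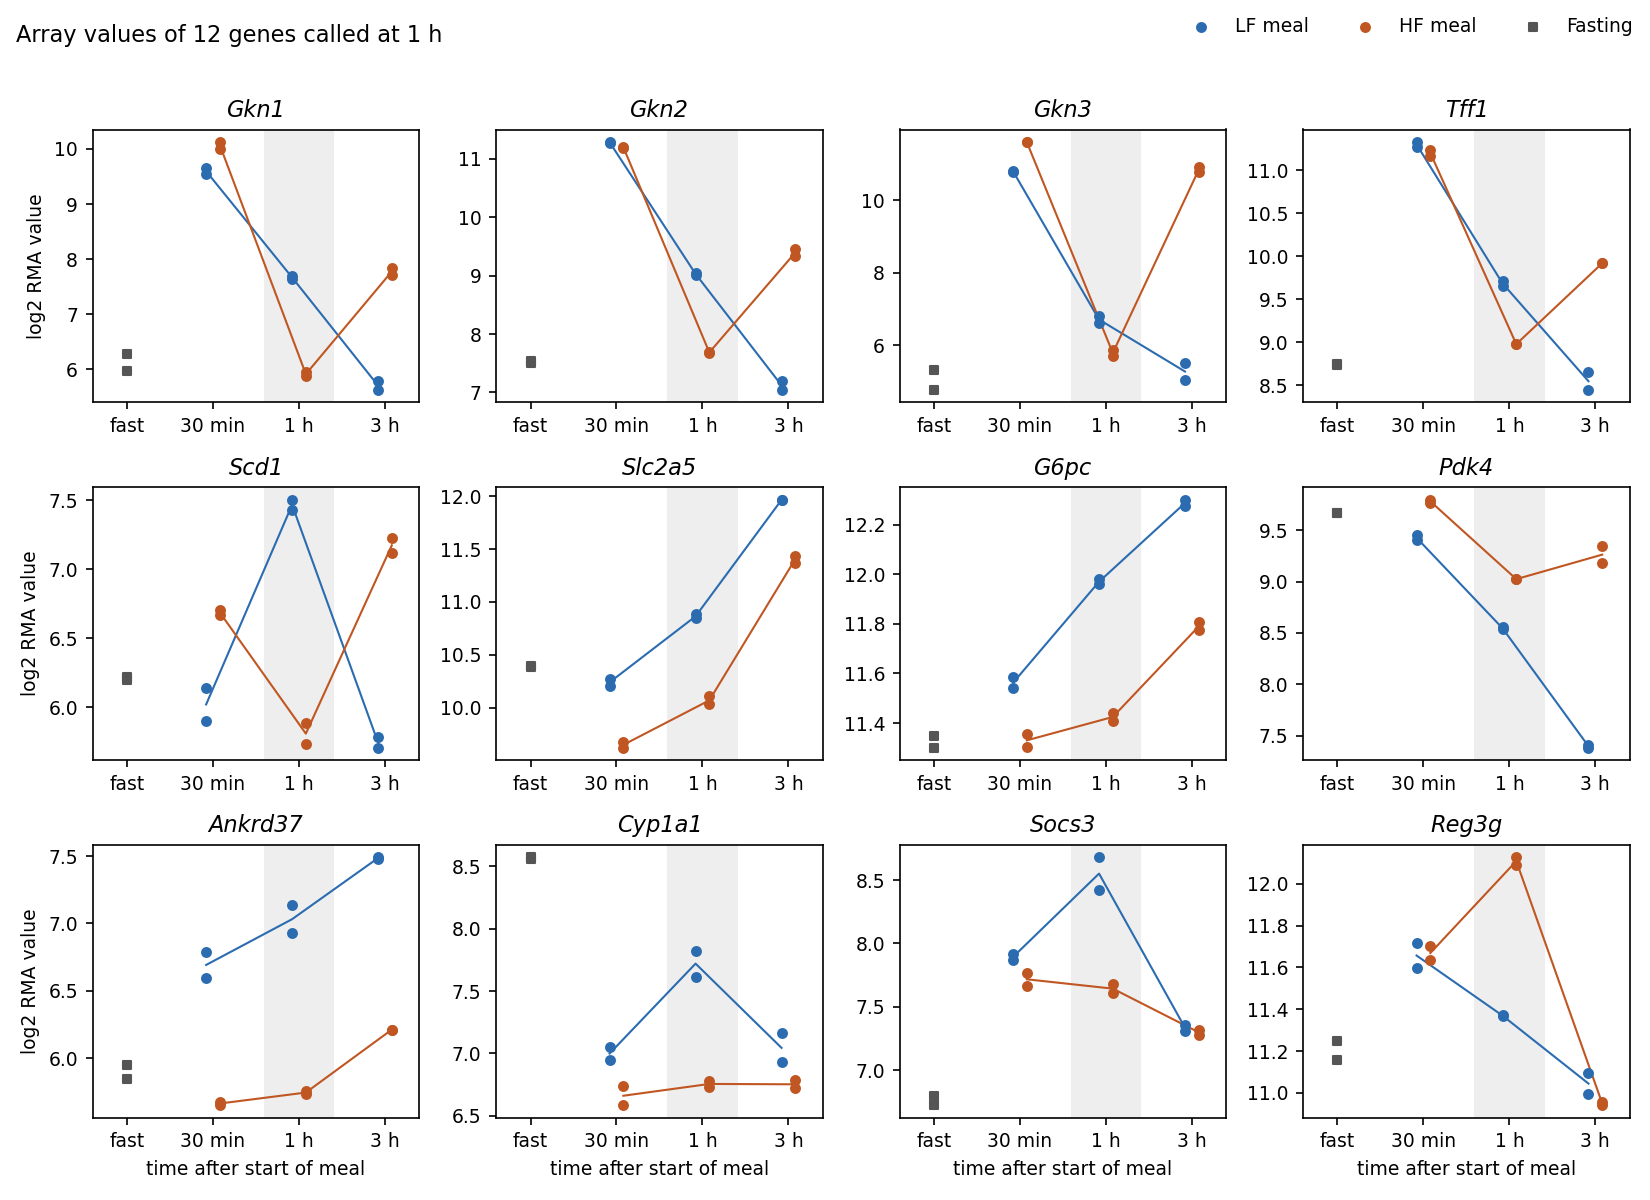
Log2 RMA values (vertical axes, not starting at 0) of 12 genes called at 1 h, by time after the start of the meal. Each dot is 1 array, lines join pool means, blue is the LF meal, orange the HF meal, grey squares the fasting pool, and the shaded band marks 1 h. Gkn1 and Scd1 were lower in HF1h than in LF1h while the order was the reverse at 3 h, and Ankrd37 and Slc2a5 were lower after the HF meal at every time.

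Genes of carbohydrate use and of lipogenesis were the next group. Scd1, the stearoyl-CoA desaturase that makes monounsaturated fatty acids, read 7.50 and 7.43 in LF1h and 5.88 and 5.73 in HF1h. It was at least 3.16-fold lower after the HF meal (log2 difference -1.66, standard error 0.10, adjusted p = 2.3e-06) and passed without any 1 of the 14 arrays. A second Scd1 probe set, of lower signal, had -0.20 and did not pass. Slc2a5, the fructose transporter GLUT5, read 10.89 and 10.84 in LF1h and 10.03 and 10.11 in HF1h, a 1.73-fold difference (log2 difference -0.79, adjusted p = 0.0005). G6pc, the catalytic subunit of glucose-6-phosphatase, read 11.98 and 11.96 against 11.41 and 11.44 (log2 difference -0.55, adjusted p = 0.0093). Arrdc4 read 6.90 and 6.82 against 6.25 and 6.22 (log2 difference -0.63, adjusted p = 0.011), and its dimmer probe set had -0.24 (adjusted p = 0.53). The arrays of the meals did not overlap in any of the 86 called probe sets, nor in 39.2% of all genes, called or not. In Scd1, Slc2a5, G6pc and Arrdc4 the 2 LF1h arrays lay above both HF1h arrays. Pdk4 went the other way, reading 8.55 and 8.54 in LF1h and 9.02 and 9.02 in HF1h (log2 difference 0.48, adjusted p = 0.034), below the fasting mean of 9.66 in both. Slc2a5 kept its call without any 1 array. Those of G6pc (adjusted p 0.0587 to 0.111) and Arrdc4 (0.0501 to 0.127) were lost without each of the 4 arrays, and that of Pdk4 without any of 10 (0.0603 to 0.191).

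Most other members of these pathways did not pass the test. Of 19 measured ChREBP targets and lipogenic genes, Scd1 and Arrdc4 were lower, against 0.159% of all genes. None was higher, and the median was -0.09. Mid1ip1, which promotes acetyl-CoA carboxylase activity, had -0.48 (adjusted p = 0.065), and Fasn, Mlxipl and Txnip had -0.39, -0.31 and -0.29 without passing. Of 11 measured genes of sugar transport and fructolysis, Slc2a5 alone passed, with Tkfc, the triokinase of fructose breakdown, at -0.42 (adjusted p = 0.068), Slc5a1 at 0.10 and Khk at -0.04. Of 13 genes of gluconeogenesis and pyruvate fate, G6pc was lower and Pdk4 higher, and the median was -0.01. Pck1, the entry enzyme of gluconeogenesis, had 0.38 (adjusted p = 0.21). Adipocytes also express Scd1, and none of 10 measured adipocyte markers passed on its brightest probe set. A dimmer probe set of Car3, the carbonic anhydrase of adipocytes and muscle, did pass, at -2.05 (adjusted p = 2.3e-06). Their median was -0.05, their summed log2 level was 11.4 on both LF1h arrays and 11.3 on both HF1h arrays, and Adipoq and Fabp4 had -0.44 and -0.29. Their part in the Scd1 difference was not tested.

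Of the genes that handle dietary fat, none on the lists passed the test between the meals at 1 h on its brightest probe set. None of 35 measured genes of fatty acid oxidation and PPARα targets passed, with differences from -0.23 to 0.29 and a median of -0.02. Pdk4, which PPARα also raises, was counted on other lists and was higher at 0.48 (adjusted p = 0.034). Cpt1a, the gate of mitochondrial fatty acid oxidation, had 0.08 and Angptl4, an inhibitor of lipoprotein lipase, 0.16. None of 31 genes of fatty acid uptake, triglyceride and chylomicron assembly passed (median -0.02), with Cd36 at -0.19, Mttp at 0.04 and Dgat2 at 0.03. None of 13 lipid droplet genes, 20 cholesterol synthesis genes or 12 bile acid genes passed, with medians of 0.02, 0.03 and 0.06. These counts read each gene on its brightest probe set, and a dimmer one of Sc5d, a desaturase of cholesterol synthesis, was lower at -0.68 (adjusted p = 0.030). Scarb1, the lipoprotein receptor SR-B1, lay outside these lists and was lower at -0.45 (adjusted p = 0.044). It was singled out after its value had been seen.

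Targets of HIF and AHR were lower after the HF meal in 5 named genes, while most members of either list did not pass. Ankrd37, an ankyrin repeat protein induced by HIF, read 6.93 and 7.14 in LF1h and 5.73 and 5.75 in HF1h. It was at least 2.44-fold lower (log2 difference -1.29, standard error 0.10, adjusted p = 1.9e-05) and passed without any 1 array. Adm, the vasodilator peptide adrenomedullin, read 6.73 and 6.69 against 5.80 and 6.06 (log2 difference -0.78, adjusted p = 0.011). Slc11a2, the divalent metal transporter that imports iron at the brush border, read 8.13 and 8.09 against 7.40 and 7.50 (log2 difference -0.66, adjusted p = 0.0032), and its 4 probe sets ran from -0.67 to 0.09. These 3 were lower among 16 measured members of the hypoxia list, against 0.159% of all genes. None was higher, and the median was -0.17. Cybrd1, the ferric reductase that works with Slc11a2, had -0.41 (adjusted p = 0.16), Vegfa -0.22, Egln3 -0.20 and Car9 -0.06. Hif1a itself had 0.04 and Epas1, which encodes HIF-2α, -0.03. The call of Slc11a2 was lost without LF1h replicate 1 (adjusted p = 0.0559), and that of Adm without LF1h replicate 1 (0.121), LF1h replicate 2 (0.0664) or HF1h replicate 1 (0.0892).

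Cyp1a1, the cytochrome P450 most strongly induced through AHR, read 7.82 and 7.62 in LF1h and 6.78 and 6.73 in HF1h, a 1.95-fold difference (log2 difference -0.97, standard error 0.10, adjusted p = 0.00089). Both pools lay below the fasting mean of 8.57. Tiparp, a poly-ADP-ribose polymerase that AHR induces and that in turn restrains AHR, read 9.28 and 9.28 against 8.61 and 8.42 (log2 difference -0.77, adjusted p = 0.0040). Both were lower, none was higher and 25 did not pass among 27 measured xenobiotic enzymes and AHR genes, with a median of -0.03. Over all genes, 0.159% were lower. Cyp1b1, a further AHR target of low signal here, had -0.07, Ahr 0.12, Ahrr 0.17 and Nqo1 0.09, and the abundant Cyp3a11 0.07. Cyp1a1 kept its call without any 1 array, whereas Tiparp had an adjusted p of 0.0559 without LF1h replicate 1 and 0.0579 without HF1h replicate 2.

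The promoters of Cyp1a1, Tiparp, Ankrd37 and Arrdc4 are shown because these genes, known targets of AHR, HIF and ChREBP, were lower together. Each window is the 250 bases before the annotated gene start, from RefSeq on GRCm38.p6, written 5′ to 3′ on the gene's strand. Capitals mark GCGTG, the core bound by AHR with ARNT, in Cyp1a1 (chr9:57697363-57697612, plus strand) and Tiparp (chr3:65528197-65528446, plus strand), ACGTG, the HIF core, in Ankrd37 (chr8:45999851-46000100, minus strand), and the E-box CACGTG, which contains ACGTG, in Arrdc4 (chr7:68749239-68749488, minus strand). Each motif was sought on both strands. Only the motif named for a gene is in capitals. GCGTG also matched 2 times in Ankrd37 and 1 time in Arrdc4, left in lower case, so it was not particular to the AHR targets. Of the lower genes not shown, Hlf held GCGTG 4 times. Adm, of the hypoxia list, held GCGTG 2 times and ACGTG 0 times.
Cyp1a1: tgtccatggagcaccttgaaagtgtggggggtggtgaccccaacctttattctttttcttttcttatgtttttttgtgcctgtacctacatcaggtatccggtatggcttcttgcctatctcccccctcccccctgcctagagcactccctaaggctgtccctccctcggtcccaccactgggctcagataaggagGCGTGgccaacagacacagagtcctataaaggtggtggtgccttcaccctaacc
Tiparp: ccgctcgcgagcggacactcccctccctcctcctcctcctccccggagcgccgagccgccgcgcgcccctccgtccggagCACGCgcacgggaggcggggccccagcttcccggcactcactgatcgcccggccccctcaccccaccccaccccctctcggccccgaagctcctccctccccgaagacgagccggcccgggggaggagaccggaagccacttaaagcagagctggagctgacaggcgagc
Ankrd37: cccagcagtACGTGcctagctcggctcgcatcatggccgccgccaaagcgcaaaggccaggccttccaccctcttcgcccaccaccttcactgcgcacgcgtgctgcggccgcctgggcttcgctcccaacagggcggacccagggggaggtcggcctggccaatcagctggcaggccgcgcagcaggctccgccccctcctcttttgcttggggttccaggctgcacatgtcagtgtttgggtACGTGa
Arrdc4: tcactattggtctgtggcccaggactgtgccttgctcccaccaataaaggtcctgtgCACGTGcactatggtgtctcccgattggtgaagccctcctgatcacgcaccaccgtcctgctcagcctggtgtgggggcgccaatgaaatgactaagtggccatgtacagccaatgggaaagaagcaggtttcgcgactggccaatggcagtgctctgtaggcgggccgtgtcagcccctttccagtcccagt
In Cyp1a1 the marked letters began 54 bases before the start, and in Tiparp 170 bases before it and on the opposite strand. In Ankrd37 they began at 241 and 6 bases, and in Arrdc4 at 193 bases. Of 32851 mouse promoter windows of this length, 28.2% held GCGTG, 16.6% ACGTG and 6.02% CACGTG. Of the 21 named genes that were lower in HF1h, 14 had a window, and 7 of these held GCGTG, 3 ACGTG and 1 CACGTG. Of the 12 that were higher, 7 had a window, and 2 held GCGTG, 0 ACGTG and 0 CACGTG. The motifs were chosen after the values had been seen, and a match describes letters and not binding.

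Among regulators of signalling, Socs3, Dusp4 and Ddit4 were lower after the HF meal. Socs3, which shuts off cytokine signalling through JAK kinases, read 8.68 and 8.42 in LF1h and 7.61 and 7.68 in HF1h, a 1.88-fold difference (log2 difference -0.91, standard error 0.09, adjusted p = 0.00074). All 3 of its probe sets passed, from -0.91 to -0.78, and the call held without any 1 array. Dusp4, a phosphatase of MAP kinases, read 5.64 and 5.70 against 4.58 and 4.77 (log2 difference -0.99, adjusted p = 0.0093), with all 4 values under 6. It was the only one to pass of 38 measured immediate early and feedback genes, whose median was -0.02. Fos and Egr1 had 0.24 and 0.33, and Jun, Atf3 and Ier5 -0.37, -0.37 and -0.44, without passing. Ddit4, an inhibitor of mTORC1 induced by stress and glucocorticoids, read 7.34 and 7.37 against 6.74 and 6.78 (log2 difference -0.60, adjusted p = 0.019). The call of Dusp4 was lost without LF1h replicate 1 (adjusted p = 0.075), LF1h replicate 2 (0.0763) or HF1h replicate 1 (0.0859), and that of Ddit4 without any of the 4 arrays (0.1 to 0.127).

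A pair of clock genes were lower among 18 measured, against 0.159% of all genes. None was higher, and the list median was -0.04. Bhlhe40, the repressor DEC1, read 10.72 and 10.65 in LF1h and 10.09 and 10.01 in HF1h (log2 difference -0.64, adjusted p = 0.005). Hlf, a transcription factor of the clock's output, read 7.74 and 7.72 against 7.20 and 7.06 (log2 difference -0.60, adjusted p = 0.014), and its other probe set had -0.30 (adjusted p = 0.29). The core genes Clock, Arntl and Cry1 had -0.06, 0.08 and -0.05, and Per2, which meals can reset, -0.23. Without LF1h replicate 1 or HF1h replicate 2, the adjusted p was 0.0736 and 0.0587 for Bhlhe40 and 0.127 and 0.156 for Hlf, and for Hlf it was 0.0767 without LF1h replicate 2.

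Paqr9, a receptor of the progestin and adipoQ family, read 7.08 and 6.84 in LF1h and 6.05 and 6.21 in HF1h (log2 difference -0.83, adjusted p = 0.017), and both of its probe sets passed. Ubd, the ubiquitin-like modifier FAT10, read 7.81 and 7.58 against 6.89 and 7.18 (log2 difference -0.66, adjusted p = 0.031). In both genes the arrays of the meals did not overlap, as in all 86 called probe sets. The rule that named these genes required it, and 39.2% of all genes had such arrays. The call of Paqr9 was lost without LF1h replicate 1 (adjusted p = 0.174), HF1h replicate 1 (0.106) or HF1h replicate 2 (0.0712), and that of Ubd without any of 8 arrays (0.0571 to 0.217).

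Of the 12 genes higher after the HF meal, Aplnr and 3 light chain genes had the largest differences, followed by Reg3g, and Defa39 had the smallest. Reg3g, a lectin that kills Gram-positive bacteria at the mucosal surface, read 11.37 and 11.37 in LF1h and 12.13 and 12.09 in HF1h, a 1.67-fold difference (log2 difference 0.74, standard error 0.08, adjusted p = 0.0015). Its fasting mean was 11.20, so the HF1h arrays stood above both other pools. Gpx2, the glutathione peroxidase of the gut epithelium, read 7.34 and 7.43 against 8.01 and 7.96 (log2 difference 0.60, adjusted p = 0.039). Defa39, a Paneth cell defensin, read 9.72 and 9.59 against 10.14 and 10.11 (log2 difference 0.47, adjusted p = 0.039). It belongs to a family of near-identical genes, and its probe set can bind several of them. The list of goblet and Paneth cell genes held neither Reg3g nor Defa39. Of its 17 measured members none passed, with a median of 0.06. The antimicrobial Ang4, the lectin Itln1 and lysozyme Lyz1 had 0.53 (adjusted p = 0.088), 0.37 and 0.31, and Muc2, the mucin of goblet cells, 0.00. Reg3g kept its call without any 1 array. That of Gpx2 was lost without any of 10 arrays (adjusted p 0.0576 to 0.22) and that of Defa39 without each of the 14 (0.0514 to 0.187).

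Igkv6-14, Igk and Igkv15-103, of the kappa light chain of antibodies, were higher after the HF meal. Igkv6-14 read 6.89 and 6.94 in LF1h and 7.84 and 7.82 in HF1h, a 1.88-fold difference (log2 difference 0.91, standard error 0.09, adjusted p = 0.0005). The probe sets annotated to Igk and Igkv15-103 had differences of 0.87 (adjusted p = 0.0093) and 0.85 (adjusted p = 0.0077). Of the 3 other probe sets annotated to Igk, 1 passed at 0.63 (adjusted p = 0.047), and the rest had 0.16 (adjusted p = 0.68) and 0.08 (adjusted p = 0.82). Iglv1, of the lambda light chain, was lower, at 12.07 and 11.98 in LF1h against 11.46 and 11.48 in HF1h (log2 difference -0.56, adjusted p = 0.011), and was singled out after its value had been seen. Its dimmer probe sets had -0.11 and 0.04. On the list of B and plasma cell genes, which held none of these light chain genes, none of 12 measured members passed. Their median was -0.02 and their summed log2 level was 14.3 to 14.4 in LF1h and 14.3 on both HF1h arrays, with Igha at -0.02 and Jchain at 0.00. Related light chain genes can bind the same probe sets, so their members are uncertain. Igkv6-14 kept its call without any 1 array. That of Igkv15-103 was lost without LF1h replicate 1 (adjusted p = 0.112) or HF1h replicate 1 (0.0744), and that of Igk without LF1h replicate 2 (0.0788), HF1h replicate 1 (0.0549) or HF1h replicate 2 (0.11).

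T cell and intraepithelial lymphocyte transcripts all leaned upward after the HF meal without a call. Of 13 measured, 0 passed, 13 had a positive difference, from 0.06 to 0.42, and the median was 0.22. Cd3g, a chain of the T cell receptor complex, had 0.42 (adjusted p = 0.073), and the granzymes Gzma and Gzmb had 0.33 and 0.25. The summed log2 level of the list was 12.1 and 12.0 in LF1h and 12.3 and 12.3 in HF1h, so the arrays of the meals did not overlap. Of 18193 genes, 7137 had arrays that did not overlap (39.2%), a share of single genes and not of list sums. The T cell list was not alone in this. Of 9 measured stem and transit cell genes, 8 had a positive difference and none passed, with a median of 0.12. Their summed log2 level was 8.9 on both LF1h arrays and 9.2 on both HF1h arrays.

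The other genes that were higher had low signals. Aplnr, the receptor of the peptide apelin, read 4.53 and 4.41 in LF1h and 5.44 and 5.45 in HF1h, at least 1.96-fold (log2 difference 0.97, adjusted p = 0.0032). Its second probe set had -0.13. Chodl, a lectin-like membrane protein, Mcm3, a subunit of the replicative helicase, Zfp945, a zinc finger protein, and Tfec, a transcription factor of the MiT family, had differences of 0.66, 0.57, 0.54 and 0.54, with all values under 6. Mcm3 was the only one to pass of 34 measured cell cycle genes (median 0.07), and its 5 probe sets ran from -0.22 to 0.57. Aplnr kept its call without any 1 array, whereas Chodl lost it without any of 12 arrays (highest adjusted p 0.277), Mcm3 without any of 10 (0.218), Zfp945 without any of 6 (0.138) and Tfec without any of 4 (0.156).

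Pancreatic transcripts were abundant in the mucosa at 1 h after both meals. None of 17 measured pancreatic enzymes and cofactors passed on its brightest probe set, all 17 had a negative difference, and the median was -0.20. Cela3b, an elastase, and Cpa1, a carboxypeptidase, averaged 13.7 and 12.8 and had differences of -0.05 each. Klk1, a kallikrein, and Pla2g1b, a phospholipase, had -0.44 (adjusted p = 0.054 and 0.14), but a Pla2g1b probe set of nearly the same signal passed, at -0.58 (adjusted p = 0.024). The summed log2 level of the list was 17.1 and 17.0 in LF1h and 16.9 on both HF1h arrays. Tmed11, a cargo protein of the early secretory pathway, read 6.76 and 6.61 against 5.85 and 5.96 (log2 difference -0.78, adjusted p = 0.0077) and was the only one to pass of 22 other acinar genes, whose median was -0.03, although a slightly dimmer probe set of Sycn, the zymogen granule protein syncollin, passed too, at -0.48 (adjusted p = 0.023). Cckar, the cholecystokinin receptor of acinar cells, was lower at -0.64 (adjusted p = 0.030) and was singled out after its value had been seen. The part of pancreatic tissue in these values was not tested. The call of Tmed11 was lost without LF1h replicate 1 (adjusted p = 0.112) or HF1h replicate 1 (0.0734).

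On a list of 16 genes taken from the regulators that the study names, 15 were measured, and none of their transcripts passed. The list was not complete, as Ahr, which the study also names, was counted with the AHR genes. It held Mapk7, which encodes ERK5, named by the study as a signalling pathway. Cebpb, a factor of acute phase and energy metabolism genes, came closest, at 7.83 and 7.63 in LF1h and 7.27 and 7.33 in HF1h (log2 difference -0.44, adjusted p = 0.088). Creb1, Ppara and Ppargc1a had -0.24, -0.20 and -0.19. Foxo1 and Mlx, the partner of ChREBP, had -0.13 and -0.17, and Nr4a1 0.15. The rest, Ptf1a, Rbpjl, Hif1a, Epas1, Nr5a2, Smad3, Pdx1 and Mapk7, lay between -0.07 and 0.18. The array reads the transcript of a regulator and not its protein or activity.

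**Figure D3:**
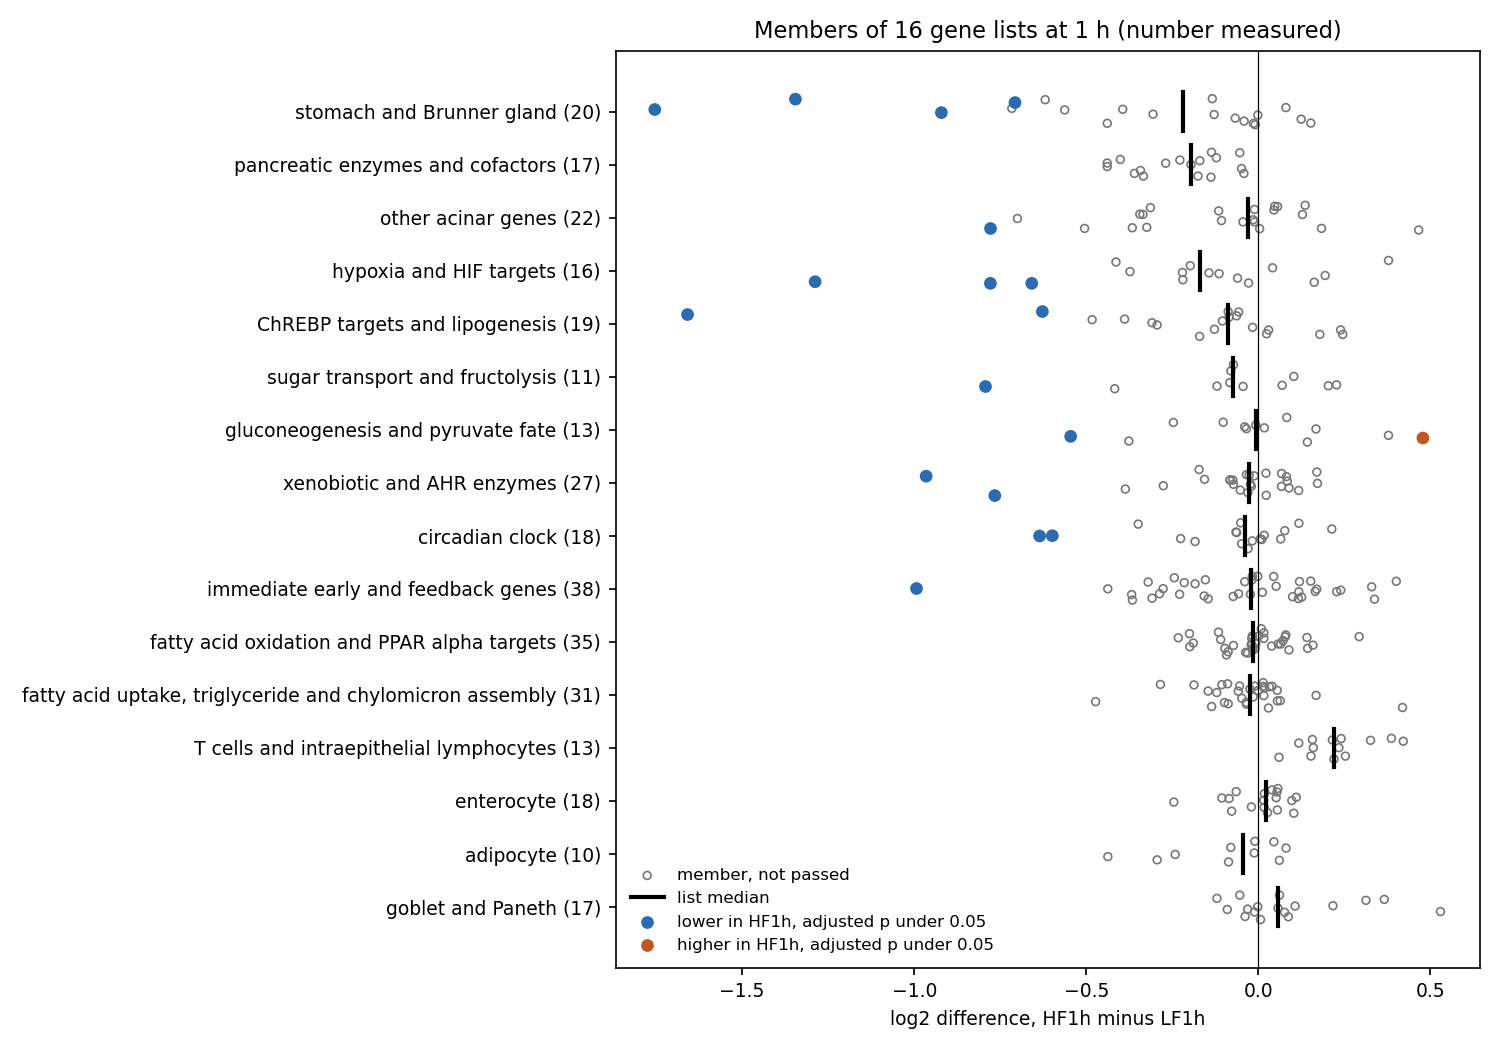
Log2 difference (HF1h minus LF1h, horizontal axis) of each measured member of 16 gene lists, with the number measured after each name. Filled dots passed at an adjusted p under 0.05 (blue lower, orange higher in HF1h), open dots did not, and black bars are list medians. Most list medians lie near 0. Lists with called members hold 1 to 4 filled dots, all to the left of 0 except Pdk4, and the other lists hold none. The 13 T cell genes all lie to the right of 0.

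Over all 43 lists, 13 held a called member, 12 a lower one and 3 a higher one. On no list were 21 of the 41 called genes. The shares over all genes, to be set beside each list count, were 0.159% lower and 0.066% higher. Among lists with none, heat shock proteins (33 measured), endoplasmic reticulum chaperones (31), the proteasome (31), ribosome biogenesis (38) and oxidative phosphorylation (35) had medians of -0.06, 0.02, 0.02, 0.05 and 0.02. Brush border hydrolases (12 measured) had -0.03 and amino acid and peptide transporters (20) -0.02. The 8 called genes outside the rule for naming were all lower. Besides Scarb1, Iglv1 and Cckar they were Slc5a3, a myo-inositol transporter (-0.60), Kctd14 (-0.51), Kcnk5, a potassium channel (-0.44), and Opalin and Lmf1 (-0.60 each), and they are given after their values were seen. All 4 probe sets of Kctd14 passed, from -0.80 to -0.51.

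The meal difference at 1 h was set beside those at 30 min and 3 h, which came from other pools and shared no array with it. Over 18193 genes the differences at 1 h correlated with those at 30 min at r = 0.1135 and with those at 3 h at r = 0.1047, given as a description across genes. Of the 61 probe sets lower in HF1h, 50 also had a negative difference at 30 min and 47 at 3 h, and 9 and 21 of these passed in that direction, against 0.215% and 0.955% of all probe sets. In the opposite direction, 2 passed at 30 min and 11 at 3 h. Of the 25 higher, 17 were positive at 30 min, where 4 passed and 0 passed in the opposite direction. At 3 h 6 were positive, 3 passed as higher and 4 passed in the opposite direction. Over all genes, 0.297% passed as higher at 30 min and 1.19% at 3 h, which are shares of genes and not of probe sets. A direct test of the change in the meal difference passed for 60 probe sets between 1 h and 30 min (0.133%) and for 231 between 1 h and 3 h (0.513%), or, counted on genes, for 32 (0.176%) and 133 (0.731%). The count against 30 min was 21 without HF30min replicate 1 and at most 39 without any other array. The count against 3 h was 146 without HF3h replicate 1.

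Several genes were lower after the HF meal at all 3 times. Ankrd37 had -1.03, -1.29 and -1.27 at 30 min, 1 h and 3 h (adjusted p = 8.7e-05, 1.9e-05 and 3.1e-06). Slc2a5 had -0.59, -0.79 and -0.56 and Slc11a2 -0.47, -0.66 and -0.50, each passing at every time. None of these 3 passed the test of a change between times. Socs3 passed at 1 h, with -0.18 at 30 min and -0.04 at 3 h, and its change from 1 h to 3 h passed (adjusted p = 0.0062) while that from 30 min did not (0.066). Cyp1a1 had -0.34 and -0.29 at 30 min and 3 h, and neither change passed (adjusted p = 0.20 and 0.072).

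The gastric genes and Scd1 changed sides. At 3 h Gkn1, Gkn2, Gkn3 and Tff1 were higher after the HF meal, by log2 differences of 2.07, 2.28, 5.57 and 1.37, each against a lower value at 1 h, and the change between 1 h and 3 h passed for all 4 (adjusted p = 1.1e-08, 1.5e-09, 3.3e-09 and 5e-07). At 30 min they had 0.47, -0.09, 0.80 and -0.10 and none passed. Of the 20 list members, 7 were higher at 30 min, against 0.297% of all genes, and 8 at 3 h, against 1.19%, and none was lower at either time. Scd1 was higher after the HF meal at 30 min (0.67, adjusted p = 0.0055) and at 3 h (1.43, adjusted p = 1.1e-06) and lower at 1 h, and both changes passed (adjusted p = 1.4e-06 and 2.7e-08). Adipocyte markers had a median of -0.02 at 30 min and 0.29 at 3 h, when 3 of 10 were higher (all genes 1.19%). The dimmer Car3 probe set had the signs of Scd1, at 0.91 at 30 min (adjusted p = 0.0026) and 2.65 at 3 h (adjusted p = 3.2e-08), and its part in the Scd1 differences was not tested. Pancreatic enzymes had no call at 1 h on the brightest probe sets. At 30 min their median was -0.82 with 14 of 17 lower (all genes 0.253%). At 3 h their median was 1.16 with 17 of 17 higher (all genes 1.19%). The change between 1 h and 3 h passed for all 17, against 0.731% of all genes.

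Reg3g, higher after the HF meal at 1 h, had 0.01 at 30 min and -0.10 at 3 h, and both changes passed (adjusted p = 0.031 and 0.0031). Igkv6-14 and Igk, higher at 1 h, were lower at 3 h, at -0.59 and -0.71 (adjusted p = 0.0039 and 0.0096). Pdk4 widened from 0.48 at 1 h to 1.87 at 3 h, and this change passed (adjusted p = 1.6e-05). The oxidation and PPARα list, which did not count Pdk4 and had no call at 1 h, had 3 of 35 higher at 30 min and 10 at 3 h. Over all genes, 0.297% were higher at 30 min and 1.19% at 3 h.

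**Figure D4:**
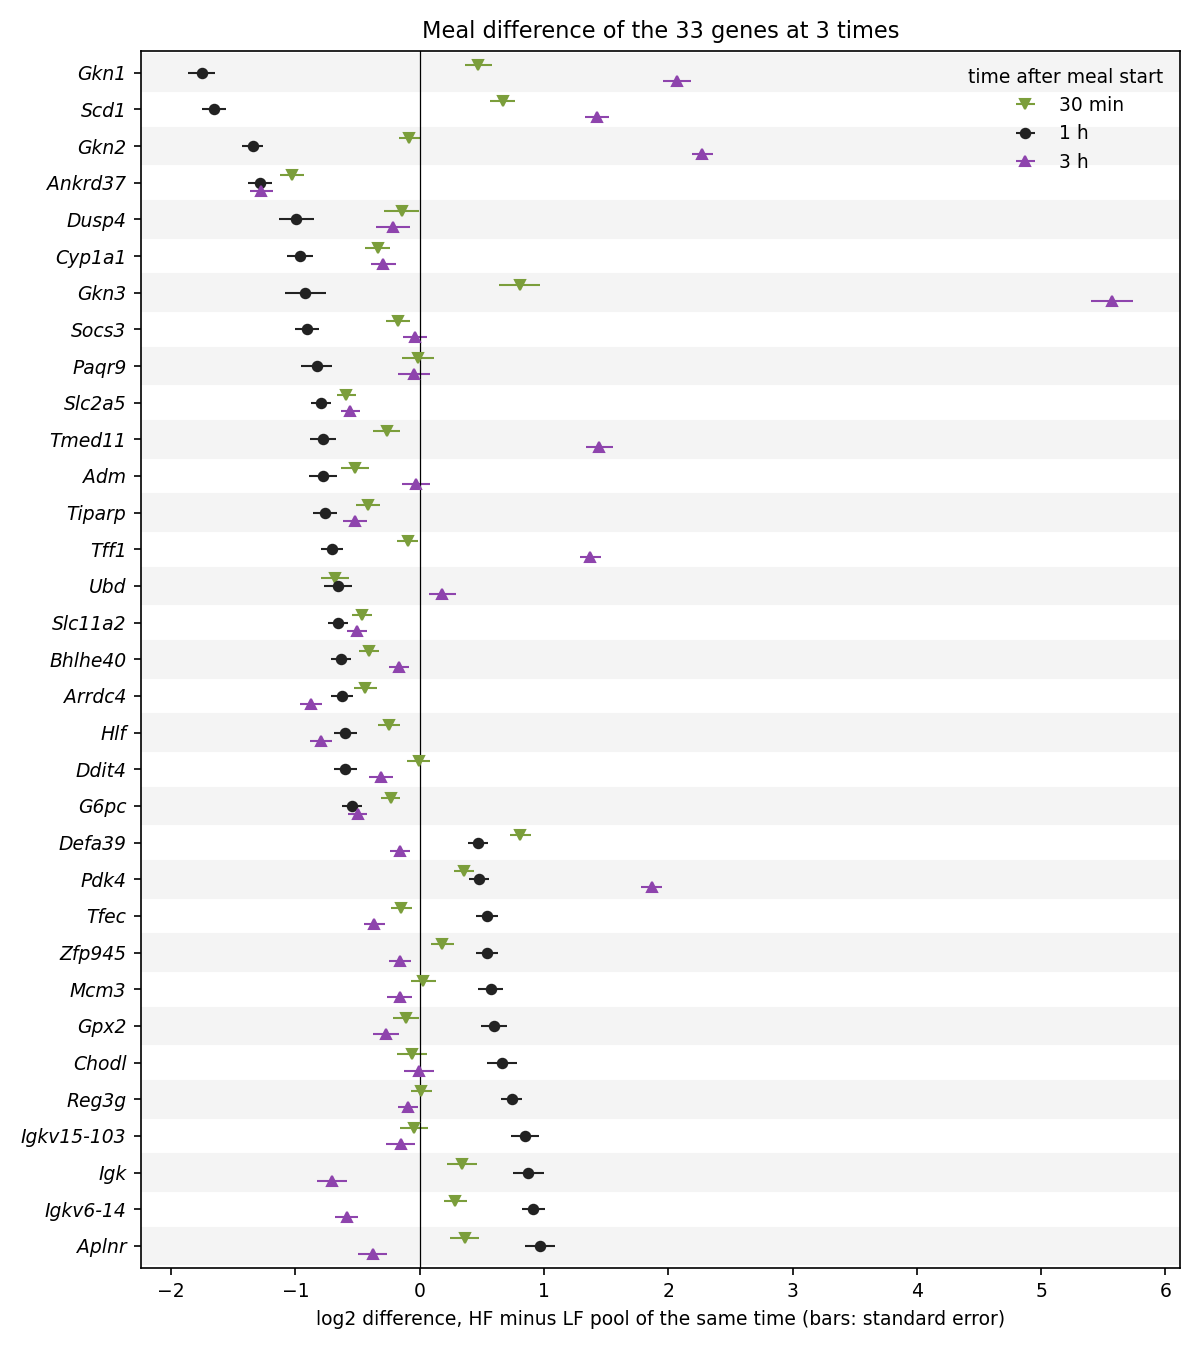
Log2 difference between the HF and the LF pool of the same time (horizontal axis, bars are standard errors) for the 33 named genes that passed at 1 h, at 30 min (triangles down), 1 h (circles) and 3 h (triangles up). Ankrd37, Slc2a5 and Slc11a2 stay to the left of 0 at all 3 times, while Gkn1, Gkn2, Gkn3, Tff1 and Scd1 cross from left at 1 h to right at 3 h.

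Some differences rested on 1 probe set among several. Of the 33 named genes called, 14 had more than 1 probe set. Every other probe set passed in the same direction for 3 of them, some did for 2 and none did for 9, and none passed in the opposite direction. Of the 86 called probe sets, 70 named a single gene, 3 several and 13 none, and 20 had both pools under 6. Car3 had a probe set at 5.47 and 5.29 in LF1h and 3.17 and 3.50 in HF1h (log2 difference -2.05, adjusted p = 2.3e-06), while its 3 others lay between -0.14 and 0.11. Slc13a1, a sulfate transporter, had probe sets at 0.98 and 0.12, and Pfkp, a phosphofructokinase, at -0.63, -0.01 and 0.01. The 3 probe sets higher by over 2-fold named no gene. They were 1456182_x_at, at 3.07 and 3.10 against 5.42 and 5.53 (log2 difference 2.39), 1420465_s_at, with 2.01, and 1441115_at, with 1.01. Of the 8 lower, 1458829_at (-1.58) and 1455869_at (-1.42) named none.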

How the data were processed

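The series holds 14 arrays of the Affymetrix MOE 430 v2.0 type, 2 technical replicates of each of 7 pools. The authors deposited log2 values per probe set, made with Robust Multiarray Analysis, which corrects background and normalises across arrays. No source states the base of the logarithm, which was inferred from this procedure. Detection calls were not used. The SAGE libraries and western blots of the study were not analysed here.

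Gene names came from the platform annotation, with current symbols looked up through Entrez IDs for 34741 probe sets. A single gene was named by 34945 probe sets, 18193 genes in all, while 932 named more than 1 and 9160 had no name. A gene with several probe sets was read on its brightest one, by the mean of all 14 arrays. Each of the 45037 probe sets was fitted over all 14 arrays with a mean for every pool, in limma 3.58.1 (R 4.3.3), with 7 residual and 6.4 prior degrees of freedom, so that the pools shared 1 estimate of the spread. HF1h was compared with LF1h, and the difference was compared with those at 30 min and 3 h, by limma's moderated two-sided test with the Benjamini-Hochberg adjustment over probe sets. A log2 value under 6 was read as near background, and a fold with such a value is given as a lower bound where it is printed as "at least". The number of arrays limits the precision, and the median standard error of a difference was 0.11. Figures were drawn with matplotlib 3.10.9 (Python 3.11.15).

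The members and the 43 gene lists, written from general knowledge, were chosen with earlier results of these data known, so lists are described by counts and medians only. Genes were named if a probe set passed with a 2-fold change. They were also named if among the 15 largest called differences in either direction with arrays that did not overlap. The 4 largest called members of each list were named, and so were the measured genes on the list of the study's regulators. Further list members were named where needed to describe a list. The alternatives were other variance models, scalings, filters, thresholds and probe set choices, the replicate number as a block, the arrays at 1 h alone, and each array left out in turn. The procedure was checked on simulated data. Replicate numbers did not pair the pools, as the deviations of same-numbered HF1h and LF1h arrays correlated at 0.0223.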

Additional observations from a re-analysis of the deposited data

Results flagged for a closer look

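The named genes that passed at 1 h, 33 in all, were looked at for a meal difference that changed with time. The change passed limma's test against 30 min for 6 of them and against 3 h for 19, and every value below is the log2 difference (HF minus LF) at 1 h minus that at the other time. Groups of 2 arrays were too small for a test of single stray arrays.

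Against both times, the change was -2.23 (30 min) and -3.82 (3 h) for Gkn1, -1.26 and -3.62 for Gkn2, -1.73 and -6.49 for Gkn3, and -2.32 and -3.09 for Scd1. It was 0.69 and 0.91 for Tfec and 0.73 and 0.83 for Reg3g.

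Against 3 h alone, the change was negative for Tmed11 (-2.23), Tff1 (-2.08), Pdk4 (-1.39), Socs3 (-0.87) and Ubd (-0.84). It was positive for Igk (1.58), Igkv6-14 (1.5), Aplnr (1.35), Igkv15-103 (1.00), Gpx2 (0.87), Mcm3 (0.73), Zfp945 (0.7) and Defa39 (0.63). At 3 h the list medians (HF3h minus LF3h) were 1.16 for pancreatic enzymes and 0.26 for stomach and Brunner's gland markers, and their part in these changes was not tested.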

How the results depend on the processing

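Of the 33 named genes called at 1 h, Scd1 and Ankrd37 were called under all 23 alternatives. Gkn1 and Gkn2 were called under the 22 in which they were read. Dropping probe sets by suffix removed the ones on which Gkn1 and Gkn2 were read, so these 2 were not tested there. None of the 33 changed direction. Of 745 pairs of a called gene and an alternative, 168 lost the call. Beside 86 probe sets and 41 genes, a variance that follows the mean (limma trend) gave 446 and 241, and a filter at a mean of 6 gave 406 and 207. With only the 4 arrays at 1 h, 12 probe sets and 5 genes passed, and the change against 30 min, fitted to its 8 arrays alone, passed for 21 probe sets. The changes against 30 min and 3 h (60 and 231) became 230 and 633 with the trend, 135 and 484 with the filter, and 29 and 126 after dropping probe sets whose suffix (_a, _s or _x) marks shared sequence, where the 2-fold count of 11 became 7. The mean of all probe sets of a gene gave 74 genes. A fold minimum of 1.5 gave 64 probe sets and of 3 gave 6. An adjusted p under 0.01 left 33, and an unadjusted p under 0.05 gave 4806, with 2546 higher and 2260 lower, a balance opposite to that of the 86.

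Leaving out 1 array at a time gave 23 to 75 probe sets, 11 to 15 with the 2-fold minimum, 11 to 36 genes, 21 to 39 changes against 30 min and 146 to 223 against 3 h. Of the 86 called probe sets, 21 were among the 23 left without LF1h replicate 1. With the replicate number as a block, the counts were 61 probe sets, 11 with 2-fold, 29 genes, and 40 and 211 changes; the arrays share only a number. Uncalled genes (Car3 read on its brightest probe set) changed sign as follows. With the mean of all probe sets, Nr5a2 had 0.075 and Epas1 0.042. With 1 array left out in turn, Pdx1 ran from -0.18 (LF1h replicate 2) to 0.057 (LF1h replicate 1), Epas1 from -0.080 (HF1h replicate 2) to 0.023 (HF1h replicate 1), with 0.0036 without LF1h replicate 1, Car3 from -0.076 (LF1h replicate 1) to 0.052 (LF1h replicate 2), with 0.012 without HF1h replicate 1, and Hif1a from -0.031 (LF1h replicate 2) to 0.11 (LF1h replicate 1), with -0.0065 without HF1h replicate 2. The causes were not tested. With no biological replicate and 2 arrays a pool, the spread between mice fed the same meal is unknown.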
